A study of Homo sapiens with 8 samples.

Results

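Oxidative phosphorylation is carried out in the inner mitochondrial membrane by 5 protein complexes, and 99 protein-coding genes named for their subunits were followed here between 2 kinds of endothelial cell. They were taken by name from the deposited table of 30386 genes. The names were MT-ND, MT-CO, MT-ATP, MT-CYB, NDUFA, NDUFB, NDUFC, NDUFS, NDUFV, UQCR, COX4 to COX8 and ATP5 genes, and SDHA to SDHD. The name rule used no measured value, but it was chosen with earlier results of these data known. Of the 99, 13 are encoded by mitochondrial DNA and 86 by nuclear chromosomes. Complexes I to IV pass electrons from NADH and succinate to oxygen, complexes I, III and IV pump protons as they do so, and complex V, the ATP synthase, uses the proton gradient to make ATP. Complex II is built from nuclear-encoded subunits alone, whereas the other complexes combine subunits from both genomes, so that their assembly needs both. Endothelial cells are known for taking much of their ATP from glycolysis.

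All samples were derived from the human line WTC-TJP1, an established line of induced pluripotent stem cells (iPSC). One group of 4 samples (iEC C, D, E and F) was differentiated into endothelial cells, and the other group of 4 (iREC C, D, E and F) into cells the submitters call retinal endothelial cells; both were taken at passage 1. All 8 therefore share 1 line, and the labels do not say whether the letters mark separate differentiations or pair an iEC with an iREC sample, so p-values measure the spread among these samples, part of which may be technical. Messenger RNA was selected on poly-T beads and sequenced, with 14877502 to 16971865 counted reads per iEC sample and 13739364 to 15987839 per iREC sample.

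In bulk RNA the cells of a culture cannot be separated, so fewer cells of a type and less RNA per cell cannot be told apart. Summed levels of 10 endothelial markers were 7325 to 9420 CPM (counts scaled to library size) in iEC and 4306 to 9588 CPM in iREC. The lowest was iREC F, with the other iREC samples at 7349 CPM or more. PECAM1 and CDH5, defining endothelial adhesion genes, were read at 493 and 517 CPM or more in every sample. Of the 10 endothelial markers, 4 were called lower and 2 higher in iREC by the test described below. That is 40% and 20%, beside 11.7% and 13.2% of all genes tested. Their log2 fold changes (iREC over iEC) ran from -1.57 to 3.82. Summed mural and mesenchymal markers (14 genes) reached 234 to 453 CPM in iEC and 1306 to 5697 CPM in iREC, highest in iREC F, and summed epithelial markers (7 genes) 391 to 1174 CPM and 302 to 4924 CPM, again highest in iREC F. Summed pluripotency markers (6 genes) were at 39.0 to 91.0 CPM in iEC and 53.3 to 505 CPM in iREC, with iREC D at 173 and iREC F at 505 CPM. A pair of libraries stood apart for the nuclear subunit genes. In iEC F 20976 genes had a count, the fewest of the 8, and in iREC E 25817 did, the most. The sum and median of the nuclear members are given with and without these libraries below, medians by complex only with them.

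No difference between the groups was detected in transcripts from mitochondrial DNA. None of the 13 mitochondrial-encoded genes passed the test, an edgeR quasi-likelihood F-test with p-values adjusted over 15330 genes and a threshold of 0.05, and none had an unadjusted p under that value; the same test called 25% of all genes tested. DESeq2, which called 30.4% of all genes tested, and limma-voom also called none of the 13, and no other setting tried called any. Their median log2 fold change (iREC over iEC) was 0.11, with a range of -0.0012 to 0.14, beside a median of 0.02 over all genes tested. MT-CO2 and MT-ND2, at -0.0012 and 0.0022, changed sign with the scaling.

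The 13 genes encode hydrophobic core subunits: 7 of complex I (MT-ND1 to MT-ND6 and MT-ND4L), cytochrome b of complex III (MT-CYB), the 3 catalytic subunits of cytochrome c oxidase, complex IV (MT-CO1 to MT-CO3), and 2 of complex V (MT-ATP6 and MT-ATP8). Summed over all 13, the level was 30983 CPM in iEC C, 32146 in iEC D, 44095 in iEC E and 39025 in iEC F. It was 36894 CPM in iREC C, 37942 in iREC D, 36100 in iREC E and 44226 in iREC F. The iEC samples C and D were the lowest of the 8, iREC F and iEC E the highest, and the groups overlapped (36562 ± 6149 CPM against 38791 ± 3701 CPM, SD, n = 4 each). As a share of all counts this was 3.20% to 4.39% in iEC and 3.63% to 4.29% in iREC.

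MT-CO1, the subunit that holds the oxygen-reducing centre of complex IV, was read at 7619, 7859, 10656 and 9761 CPM in iEC C to F and at 8833, 9873, 9383 and 11310 CPM in iREC C to F. Its log2 fold change was 0.13 ± 0.17 (SE, adjusted p = 0.612, edgeR). MT-ND4, a proton-pumping subunit of complex I, was read at 4270, 4788, 6487 and 5442 CPM in iEC C to F, and at 5173, 5076, 4957 and 6518 CPM in iREC C to F. Its log2 fold change was 0.05 ± 0.18 (adjusted p = 0.868, edgeR). Both genes follow the sum, low in iEC C and D and high in iEC E and iREC F. In 10 of the 13 genes iEC E and F both lay above iEC C and D.

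The make-up of the mitochondrial messenger reads overlapped between the groups. These are shares of reads after poly-T selection, not of messengers in the cells. MT-CO1 took 23.94% to 26.02% of the reads of the 13 genes, MT-ND4 13.38% to 14.89% and MT-CO3 12.49% to 14.04%. MT-ND6, the one subunit encoded on the other strand of the mitochondrial DNA, took 1.591% to 2.121%. Among the other complex I genes MT-ND5 ran from 4.786% in iEC F to 6.86% in iREC E, MT-ND3 from 1.779% in iEC D to 2.712% in iEC F, and MT-ND4L from 2.016% in iEC F to 2.96% in iREC F.

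Per length, on the deposited FPKM scale (fragments per kilobase of gene, scaled for depth, mean level of 8 samples), the complex IV genes led: MT-CO3 at 6275, MT-CO2 at 6233 and MT-CO1 at 6033. MT-ATP6 followed at 4002 and MT-ND4 at 3830. The lowest were MT-ND5 at 1212 and MT-ATP8 at 730. The first 3 differ by less than their spread over samples. MT-ATP8 shares 46 bases with MT-ATP6 and MT-ND4L shares 7 with MT-ND4, so reads there can be assigned to either gene or to none. Nuclear pseudogene copies also took reads, MTATP6P1 at 225 to 348 CPM, MTND2P28 at 71.1 to 124 CPM and MTCO1P12 at 10.8 to 23.1 CPM. The highest nuclear member was ATP5F1B, the catalytic beta subunit of complex V, at 405 FPKM, followed by NDUFS5 at 262 and COX8A at 147. The median tested member was at 2582 FPKM for mitochondrial DNA and at 29.4 FPKM for nuclear DNA.

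**Figure D1:**
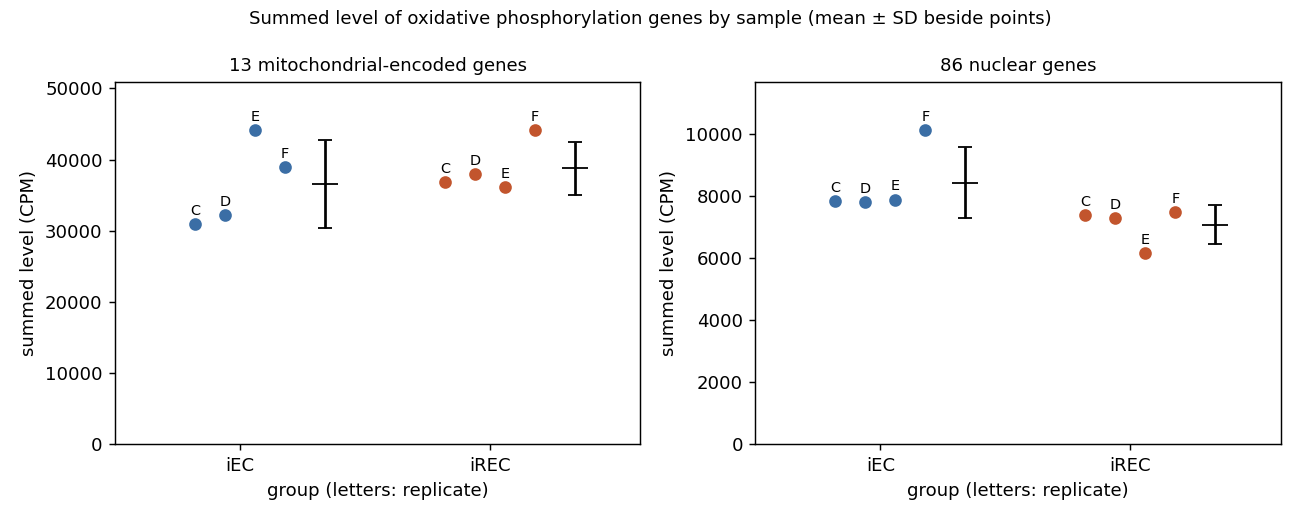
Summed level in CPM (vertical axes, from 0) of the 13 mitochondrial-encoded genes (left) and the 86 nuclear genes (right) in each sample, with letters for replicates and the mean ± SD (n = 4) beside the points. The mitochondrial sums overlap between iEC and iREC, while the nuclear sums run from 7807 CPM up in iEC and from 7482 CPM down in iREC, with iEC F high and iREC E low.

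Nuclear subunit genes were lower in iREC in sum. Of the 86, 80 had enough reads to test, 11 were lower and 1 was higher. The share called lower, 13.8%, is near the 11.7% of all genes tested that were called lower; the share called higher, 1.25%, compares with 13.2%. The fitted fold change was below 0 in 70 of the 80 (87.5%, beside 48.4% of all genes tested), with a median of -0.27 beside 0.02. In 23 of the 80 every iREC sample was below every iEC sample (28.7%, beside 14.6% of all genes tested), and 1 member had the opposite order (14.5% of all genes tested did). In either direction this makes 24 of 80 without overlap, beside 29.1% of all genes tested, a similar share. Neither the counts nor the median carry a test of the set.

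The summed nuclear level was 7832, 7807, 7876 and 10128 CPM in iEC C to F, and 7376, 7273, 6148 and 7482 CPM in iREC C to F. The groups did not overlap (8411 ± 1145 against 7070 ± 620 CPM, SD, n = 4 each), and the iREC mean was 84.1% of the iEC mean. Within iEC, however, 3 samples lay within 7807 to 7876 CPM and iEC F alone was far above; within iREC, iREC E alone was far below. Of the 80 tested members, 72 were highest in iEC F among the iEC samples, and 60 were lowest in iREC E among the iREC samples. Without iEC F and iREC E the sums were 7838 ± 34.8 CPM in iEC and 7377 ± 104 CPM in iREC (SD, n = 3 each), still without overlap, and the iREC mean was 94.1% of the iEC mean. The median log2 fold change of the nuclear members then moved from -0.27 to -0.09, and 7 members were called lower in place of 11, with 8.06% of all genes called lower. Without iEC F alone the median was -0.16. Without iREC D alone, or iREC E alone, 7 members were called lower (8.75%, beside 7.47% and 8.57% of all genes tested).

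**Figure D2:**
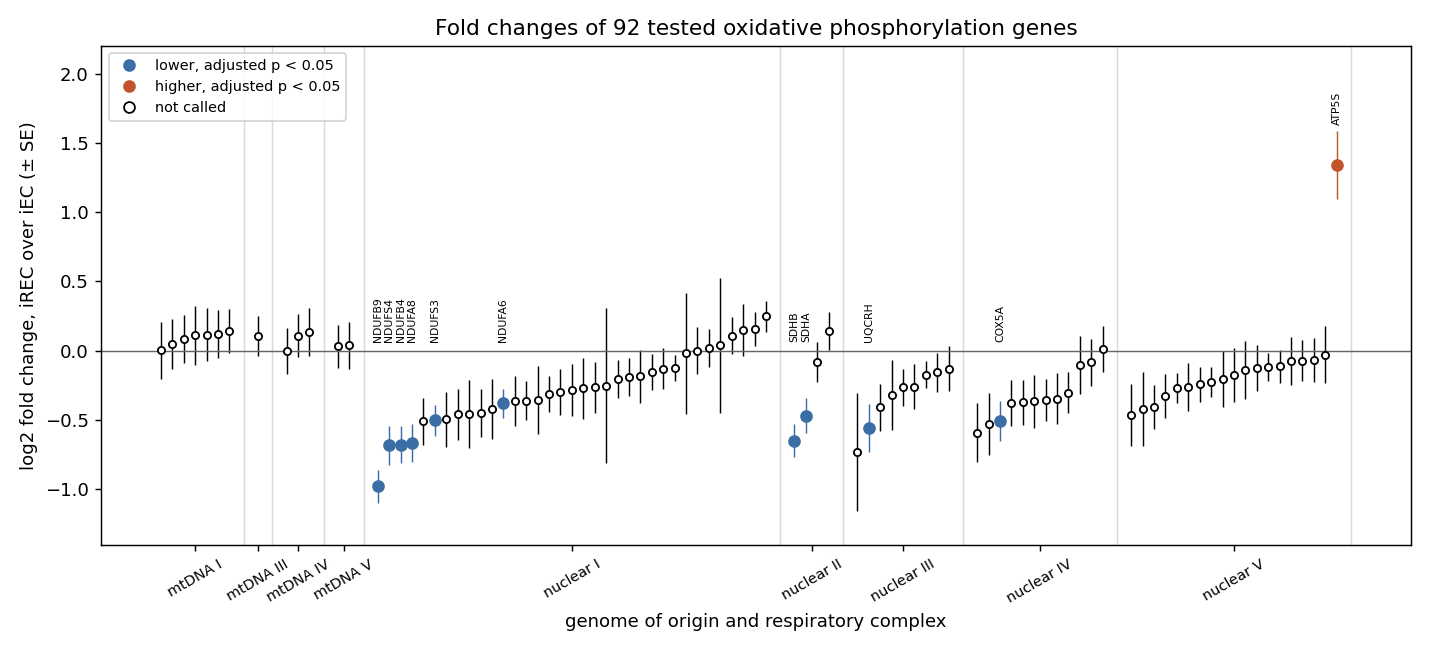
Fitted log2 fold change, iREC over iEC, with its SE (vertical axis) for 92 of the 93 tested genes, grouped by genome of origin and complex (horizontal axis) and ordered by value within each group; filled points passed the adjusted threshold. The 13 mitochondrial-encoded genes lie near 0, the 10 blue points are nuclear genes of complexes I to IV called lower, and ATP5S is called higher.

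The genes called lower lay in complexes I to IV. Those that kept the call in all 21 alternative settings lay in complexes I and II. Complex I, the NADH dehydrogenase, had 7 of 36 tested nuclear genes called lower (19.4%, beside 11.7% of all genes tested; median log2 fold change -0.29). Complex II had 2 of 4 (median -0.27). Complex III had 1 of 9 (11.1%, median -0.26) and complex IV 1 of 12 (8.33%, median -0.36), at or below the share of all genes. Complex V had 0 of 19 called lower and 1 called higher (median -0.18). Differences between complexes were not tested. These medians are from the fit with all 8 samples, iEC F and iREC E included. For complex IV the nuclear sum was 1777 CPM in iEC F and 885 CPM in iREC E, beside 1179 to 1305 CPM in the other samples. The summed levels did not overlap between groups for complexes I and II and did for III, IV and V.

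Of the 11, 7 kept the call in all 21 alternative settings, among them NDUFB9, NDUFS4, NDUFB4, NDUFA8 and NDUFS3 of complex I, and SDHB of complex II. The other 4, UQCRH, COX5A, SDHA and NDUFA6, lost it in some. NDUFB9 had the largest fold change of the 11, 1.97-fold lower.

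NDUFS3, a core subunit of complex I (chr11:47565336-47584562, GRCh38), was read at 62.6, 54.7, 61.5 and 66.6 CPM in iEC C to F and 42.7, 43.4, 39.9 and 47.2 CPM in iREC C to F, without overlap. Its log2 fold change was -0.50 ± 0.11 (adjusted p = 0.0106, edgeR). In the annotation 19.6% of its exonic bases are shared with PTPMT1 on the same strand, which was read at 3.78 CPM in iEC and 3.55 CPM in iREC. A further 6.4% lie opposite CELF1, which was read at a mean of 201 CPM across iEC samples, against 148 CPM for iREC, and was itself called lower (log2 fold change -0.44, adjusted p = 0.0359, edgeR); its part in the NDUFS3 count was not tested. NDUFS7, the core subunit that holds the last iron-sulfur cluster, lay just outside the threshold at -0.51 ± 0.17 (adjusted p = 0.052, edgeR). NDUFS1, NDUFS8 and NDUFV1, which bind iron-sulfur clusters or FMN, had log2 fold changes of -0.12, -0.28 and 0.02 and were not called.

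Among the accessory subunits NDUFB9 fell most. It was read at 109, 113, 122 and 125 CPM in iEC C to F and at 52.9, 64.6, 54.2 and 67.4 CPM in iREC C to F. The groups were far apart, and neither iEC F nor iREC E stood out. Its log2 fold change was -0.98 ± 0.12 (SE, adjusted p = 0.000493, edgeR). On chromosome 8, 16.5% of its exonic bases lie opposite MTSS1, which was read at a mean of 70.5 CPM across iEC samples, against 71.7 CPM for iREC, and 4.6% lie opposite TATDN1, at 14.6 and 10.9 CPM; whether the authors' counting used strand is not given in the sources used here.

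NDUFB4, an accessory subunit of the membrane arm, was read at 86.1, 85.1, 91.7 and 102 CPM in iEC C to F and 55.2, 64.2, 46.5 and 62.3 CPM in iREC C to F (log2 fold change -0.68 ± 0.13, adjusted p = 0.0055, edgeR). NDUFS4, an accessory subunit whose loss is known to cause Leigh syndrome, was read at 46.2, 41.9, 43.3 and 54.8 CPM in iEC and 32.9, 31.0, 26.3 and 25.6 CPM in iREC (-0.68 ± 0.14, adjusted p = 0.0069, edgeR). In both genes all iREC samples lay below all iEC samples, with iEC F the highest. NDUFA8, an accessory subunit of the face towards the intermembrane space, was read at 76.6, 66.7, 68.0 and 84.4 CPM in iEC and 50.7, 52.2, 39.5 and 44.0 CPM in iREC (-0.67 ± 0.13, adjusted p = 0.0067, edgeR). NDUFA6 was read at 77.0, 77.6, 74.7 and 76.1 CPM in iEC and 65.8, 58.1, 53.9 and 56.9 CPM in iREC. Its iEC samples were the closest to each other of the called genes, and its log2 fold change was -0.38 ± 0.10 (adjusted p = 0.0253, edgeR). That call was lost in 9 of the 21 settings, among them without iEC C or E and without iREC D or E.

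Complex II, succinate dehydrogenase, links the citric acid cycle to the respiratory chain. Its catalytic pair fell while its membrane anchors were not called. SDHB, the iron-sulfur subunit (chr1:17018722-17054170), was read at 91.7, 83.7, 92.9 and 107 CPM in iEC C to F and at 62.0, 56.7, 53.7 and 66.9 CPM in iREC C to F (log2 fold change -0.65 ± 0.12, SE, adjusted p = 0.0043, edgeR). SDHA, the flavin-bearing subunit that oxidises succinate (chr5:218241-256700), was read at 157, 186, 198 and 226 CPM in iEC and at 148, 131, 136 and 139 CPM in iREC. The groups came close, with iEC C at 157 and iREC C at 148 CPM (-0.47 ± 0.13, adjusted p = 0.0254, edgeR), and the call was lost without iEC E, iREC D or iREC E. SDHC and SDHD, which anchor the enzyme in the membrane and bind ubiquinone, had log2 fold changes of 0.14 ± 0.14 and -0.08 ± 0.14 (adjusted p = 0.487 and 0.722, edgeR). SDHC was read at 92.0, 82.9, 88.2 and 122 CPM in iEC and 104, 108, 101 and 112 CPM in iREC, with iEC F above every iREC sample. With a trend on gene length removed SDHC was at -0.02, so its direction depends on that choice. The difference between the catalytic pair and the anchors was not tested.

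In complex III, UQCRH, the hinge subunit that helps cytochrome c dock, was read at 135, 125, 142 and 186 CPM in iEC C to F and at 90.9, 110, 78.4 and 121 CPM in iREC C to F. The groups were nearly touching at 125 and 121 CPM (log2 fold change -0.56 ± 0.17, adjusted p = 0.044, edgeR), and the gene no longer passed without any one of iEC C, E or F or iREC C, D or E, 6 of the 8 samples. UQCRHL, a near-identical copy of UQCRH, was read at 1.28 to 6.01 CPM, so reads of the pair may have been split. The core subunits UQCRC1, UQCRC2 and UQCRFS1 had log2 fold changes of -0.26, -0.17 and -0.16 and were not called.

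In complex IV, COX5A, a structural subunit, was read at 107, 112, 106 and 153 CPM in iEC C to F and at 94.1, 84.6, 77.9 and 79.6 CPM in iREC C to F. Apart from iEC F the iEC samples lay within 106 to 112 CPM, above all iREC samples (-0.51 ± 0.14, adjusted p = 0.0303, edgeR). The call was lost without iREC D, E or F and without iEC F and iREC E together. COX4I1, which adjusts the enzyme's activity to ATP, was read at 253, 254, 275 and 370 CPM in iEC and 227, 249, 206 and 252 CPM in iREC (-0.30 ± 0.15, adjusted p = 0.176, edgeR). Over the 21 alternatives its log2 fold change ran from -0.38 to -0.10. NDUFA4, once assigned to complex I and now to complex IV, was read at 120, 134, 90.9 and 131 CPM in iEC and 131, 125, 91.2 and 133 CPM in iREC (0.01 ± 0.17, adjusted p = 0.968, edgeR), with iEC E and iREC E low.

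Several complex IV subunits have isoforms used in different tissues. The genes COX6A1, COX6B1, COX7A2, its relative COX7A2L, COX7B and COX8A had log2 fold changes of -0.38, -0.35, -0.59, -0.35, -0.37 and -0.53. None of these genes passed the test, and COX7A2 came closest (adjusted p = 0.0722, edgeR). Over the 21 alternatives their values nearest 0 were -0.15, -0.09, -0.28, -0.15, -0.08 and -0.23. In some of the alternatives COX7A2 and COX8A passed. The muscle form COX7A1 had at most 16 counts in a library, the testis forms COX6B2 and COX8C at most 4 and 2, and NDUFA4L2, a hypoxia-induced relative of NDUFA4, at most 7. These 4 were too low to test, as were ATP5MGL and the read-through ATP5MF-PTCD1. COX4I2, COX6A2 and COX7B2 were not analysed here.

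**Figure D3:**
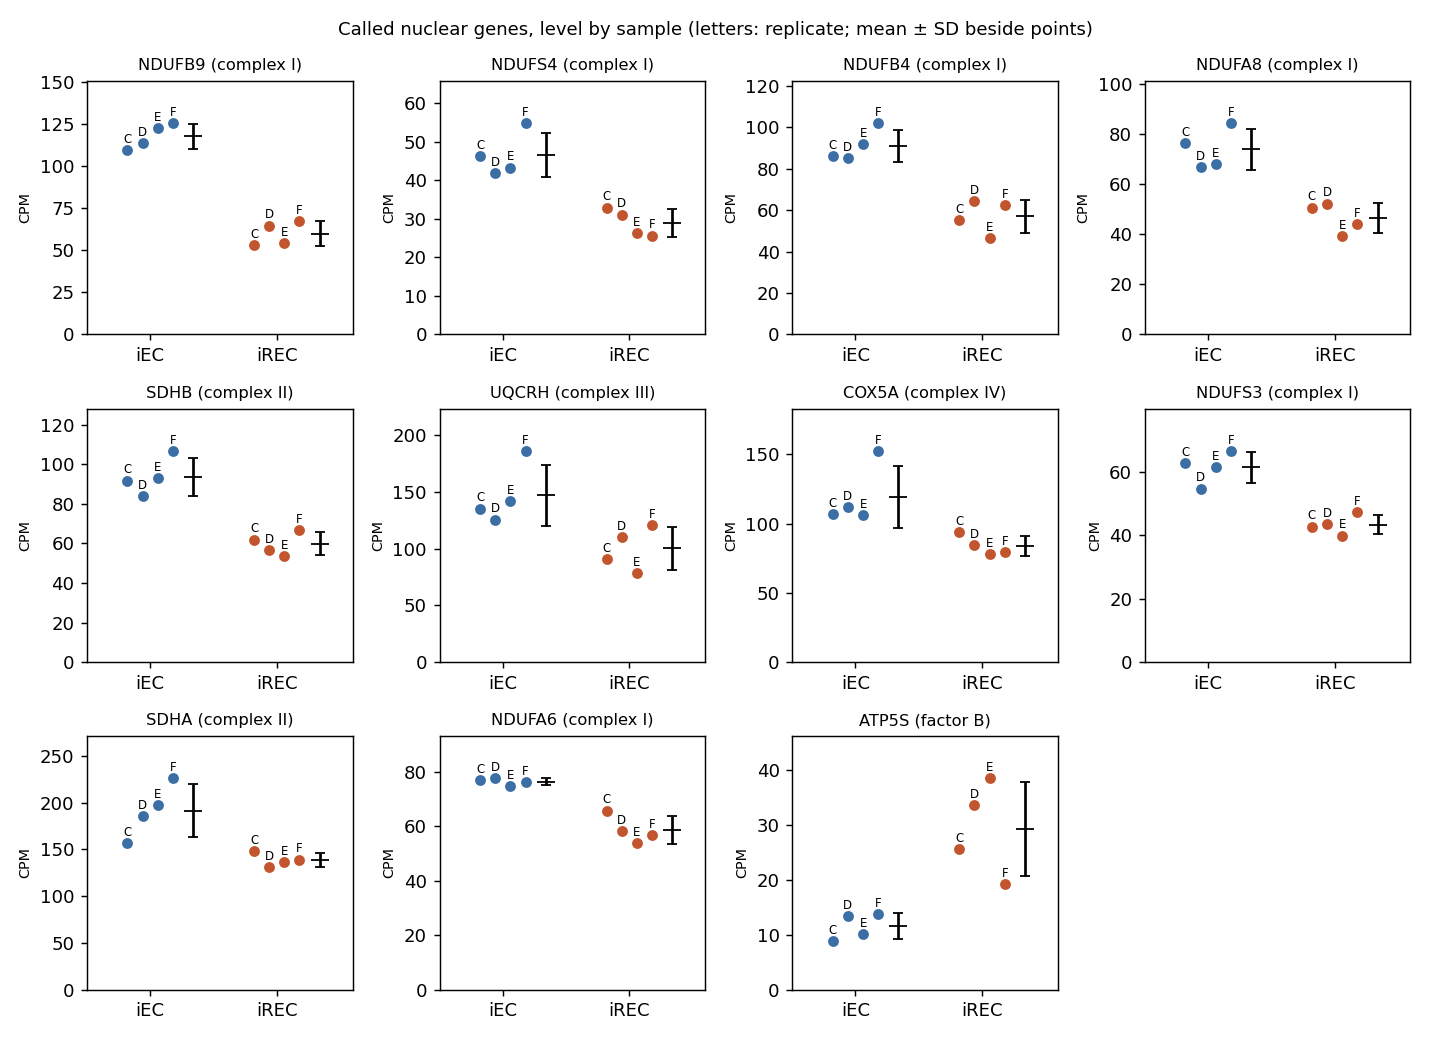
Level in CPM (vertical axes, from 0) by sample for 11 of the 12 called nuclear genes, with letters for replicates and the mean ± SD (n = 4) beside the points. NDUFB9 falls from 109 to 125 CPM in iEC to 52.9 to 67.4 CPM in iREC, UQCRH and SDHA nearly touch between groups, and ATP5S is higher in all iREC samples.

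Complex V showed the smallest shift of the nuclear groups by median, and none of its true subunits was called. ATP5F1B was read at 1015, 1044, 967 and 1080 CPM in iEC C to F and at 919, 893, 851 and 850 CPM in iREC C to F (-0.22 ± 0.11, adjusted p = 0.158, edgeR), without overlap. ATP5F1A, the alpha subunit, had a log2 fold change of -0.11. The 3 genes for the c ring, ATP5MC1, ATP5MC2 and ATP5MC3, which encode the same mature protein, had -0.14, -0.07 and -0.33, the first 2 of which were above 0 without iREC E. ATP5IF1, the inhibitor that blocks ATP hydrolysis, had -0.41 (adjusted p = 0.0966, edgeR).

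The one member called higher is not a subunit. ATP5S, now named DMAC2L, encodes the coupling factor B. It was read at 8.91, 13.4, 10.2 and 13.7 CPM in iEC C to F and at 25.6, 33.7, 38.5 and 19.3 CPM in iREC C to F, without overlap. Its log2 fold change was 1.34 ± 0.25 (SE, adjusted p = 0.0041, edgeR), and all 21 alternatives kept the call. In the annotation 14.2% of its exonic bases lie opposite CDKL1, which itself rose from 3.25 to 14.6 CPM; how much of the ATP5S count came from CDKL1 was not tested.

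Members with few reads must be read with the annotation in view. NDUFA13, NDUFV2 and NDUFA7, all complex I subunits, were read at 1.05 to 3.31, 0.429 to 1.78 and 0.214 to 1.11 CPM. They share 21.0%, 28.4% and 32.3% of their exonic bases with other annotated genes on the same strand. Reads that fall in such bases may have been assigned to no gene. Their fold changes carry SEs of 0.43 to 0.56 on the log2 scale.

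Gene length moved with the libraries that stood apart. Among tested protein-coding genes that are not members and are up to 1.5 kb long by the deposited gene length (373 genes), the median deviation from each gene's mean was 0.35 in iEC F and -0.28 in iREC E on the log2 CPM scale. It was between -0.04 and 0.11 in the other 6 samples. Over 6 kb (5346 genes) the signs turned, to -0.15 and 0.09. The 23 nuclear members of up to 1.5 kb deviated by 0.58 in iEC F and -0.50 in iREC E. The 23 members of 3 to 6 kb deviated by 0.46 and -0.36, where other protein-coding genes of that length were at 0.02 and -0.05. The 12 members over 6 kb deviated less, by 0.20 in iEC F and -0.11 in iREC E.

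The nuclear members' median log2 fold change was -0.38 up to 1.5 kb, -0.18 from 1.5 to 3 kb, -0.26 from 3 to 6 kb and -0.14 over 6 kb. The other protein-coding genes had -0.23, -0.11, -0.01 and 0.08 in the same classes. With a trend on length removed in every sample, the nuclear median was -0.24 beside 0.01 over all genes. Then 11 members were called lower (13.8%, beside 12.4% of all genes tested), 9 of them among the original 11. Summed proliferation markers (10 genes) were also lowest in iEC F, at 281 CPM, with 603 to 1340 CPM in the other iEC samples and 753 to 1331 CPM in iREC. Their part in the nuclear subunit levels was not tested.

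**Figure D4:**
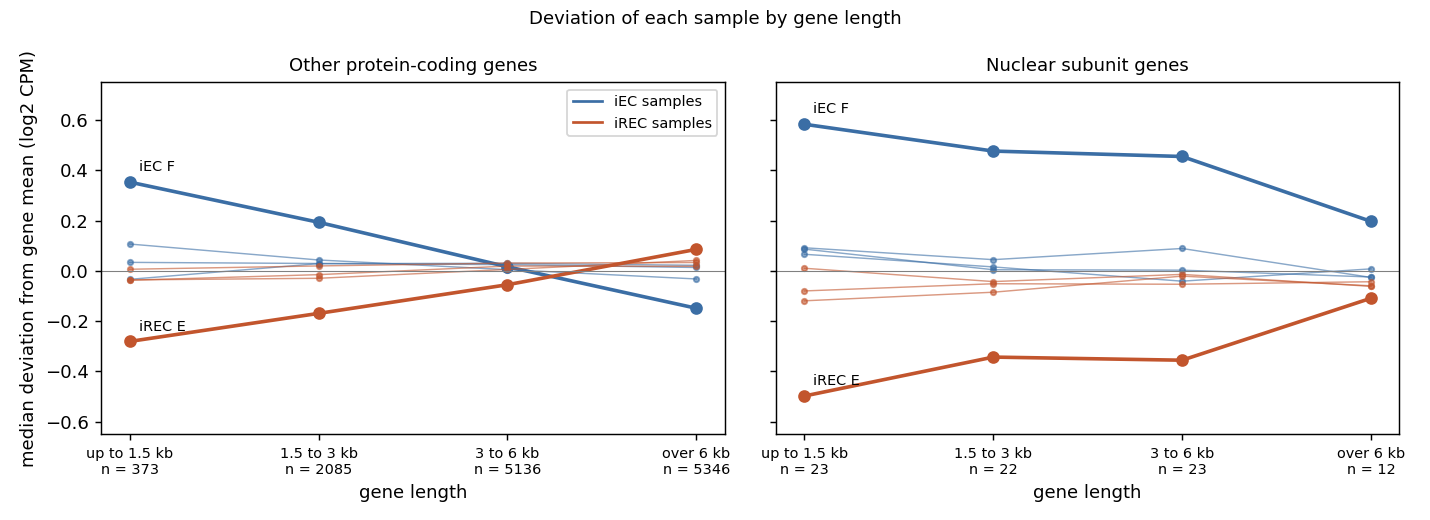
Median deviation of each sample from the gene means, in log2 CPM (vertical axis), by class of gene length (horizontal axis, with the number of genes), for other protein-coding genes (left) and nuclear subunit genes (right); thick lines are iEC F and iREC E. In both panels iEC F is high and iREC E low for the shortest genes. Subunit genes of 3 to 6 kb are at 0.46 and -0.36 in these samples, and those over 6 kb at 0.20 and -0.11.

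The ratio of mitochondrial to nuclear summed levels was 3.96, 4.12, 5.60 and 3.85 in iEC C to F and 5.002, 5.22, 5.87 and 5.91 in iREC C to F. Of the iEC samples, iEC E lay among the iREC values, so the groups overlapped (4.38 ± 0.82 against 5.50 ± 0.46, SD, n = 4 each).

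The promoters of nuclear subunit genes are known for sites of the regulators NRF1 (nuclear respiratory factor), GABPA (an ETS factor, NRF2) and YY1, so these were searched in RefSeq promoters (GRCh38.p14, 250 bases before to 50 after the start, 1 per gene). Of the 86 nuclear members 67 matched a promoter. The letters GCGCANGCGC, for NRF1, were found on either strand in 25.4% of the 67, beside 9.69% of 13256 protein-coding promoters of the same length. The letters CCGGAAG, for ETS factors, were in 29.9% beside 16%, and AAGATGG, for YY1, in 23.9% beside 6.64%. The ETS and YY1 letters can overlap in AAG, and no motif contains another. At least 1 of the 3 was in 61.2% of the members and 28.2% of protein-coding promoters. Of the 9 matched promoters of genes called lower 8 held at least 1, as did 33 of the other 58. A match is a description of letters and says nothing on binding in these cells.

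The promoters of 3 genes called lower, chosen because they hold several copies of a motif, are printed 5′ to 3′ from 250 bases before to 10 after the RefSeq start, with the matched letters in capitals. Members that were not called held several copies too, among them UQCR11 (2 ETS and 2 NRF1 matches) and NDUFA3 (2 NRF1 and 2 YY1 matches). SDHA held 4 NRF1 matches, each 49 bases after the one before. NDUFB4 held 3 NRF1 matches, the last across the start. NDUFS3 held 2 ETS matches, of which the first is on the opposite strand; its RefSeq start lies inside the longer annotated gene given above.
SDHA, chr5:218070-218329, + strand: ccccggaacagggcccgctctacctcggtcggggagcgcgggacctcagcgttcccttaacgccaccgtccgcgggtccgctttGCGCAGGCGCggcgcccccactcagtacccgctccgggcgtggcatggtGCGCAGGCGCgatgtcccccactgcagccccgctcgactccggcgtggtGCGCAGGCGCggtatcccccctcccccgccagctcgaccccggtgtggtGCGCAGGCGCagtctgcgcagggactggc
NDUFB4, chr3:120596086-120596345, + strand: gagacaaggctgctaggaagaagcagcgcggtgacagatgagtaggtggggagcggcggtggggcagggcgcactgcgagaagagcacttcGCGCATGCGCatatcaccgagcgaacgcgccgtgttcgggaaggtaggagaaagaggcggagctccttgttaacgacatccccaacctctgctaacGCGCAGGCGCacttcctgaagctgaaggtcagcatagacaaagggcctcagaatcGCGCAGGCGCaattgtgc
NDUFS3, chr11:47578824-47579083, + strand: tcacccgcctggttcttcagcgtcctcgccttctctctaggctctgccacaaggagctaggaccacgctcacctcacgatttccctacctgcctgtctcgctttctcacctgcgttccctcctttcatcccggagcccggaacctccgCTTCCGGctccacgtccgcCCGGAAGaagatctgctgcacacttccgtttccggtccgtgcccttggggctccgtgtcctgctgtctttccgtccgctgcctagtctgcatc

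The regulators themselves were not called. NRF1, GABPA and YY1 had log2 fold changes of -0.18, 0.23 and -0.03 (adjusted p = 0.547, 0.185 and 0.827, edgeR), and TFAM, which packages and transcribes mitochondrial DNA, had -0.20 (adjusted p = 0.451). PPARGC1A, the coactivator PGC-1 alpha, was read at 0.24 to 4.68 CPM with overlap (-0.48 ± 0.84). The wider list of regulators also holds hypoxia, antioxidant and fatty acid oxidation regulators. Of its 16 tested genes 3 rose and none fell (18.8% higher, beside 13.2% of all genes tested). EPAS1, the hypoxia factor HIF-2 alpha, was at 562 ± 223 CPM in iEC and 1616 ± 153 CPM in iREC (SD, n = 4 each), a log2 fold change of 1.52 (adjusted p = 0.0034, edgeR). NFE2L2, an antioxidant regulator that is also called NRF2 but is not GABPA, rose by 1.01 on the log2 scale. In the annotation 17.6% of NFE2L2's exonic bases are shared on the same strand. PPARA, a regulator of fatty acid oxidation, rose by 1.10. All 3 kept the call in the 21 alternatives.

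Of 31 tested genes that maintain, transcribe or stabilise mitochondrial DNA and its RNA, 1 was called (3.23%, beside 25% of all genes tested). SLIRP, a partner of LRPPRC in protecting mitochondrial messengers, fell by 0.80 on the log2 scale (adjusted p = 0.0273, edgeR; lost in 5 of the 8 fits without 1 sample), while LRPPRC was at -0.18 and not called. Of 4 tested subunits and carriers outside the names used above 1 was called, and it was lower. That is 25%, beside 25% of all genes called and 11.7% called lower. The gene was NDUFAB1, the acyl carrier protein of complex I, which fell by 0.52 (lost in 4 of 8 such fits).

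Assembly factors were called at shares near or below those of all genes. Of 18 tested for complex I, 3 fell (16.7%, beside 11.7% of all genes tested): NDUFAF4 by 0.59, NDUFAF5 by 0.72 and COA1 by 0.49 on the log2 scale. NDUFAF4 kept the call in all 21 alternatives, whereas NDUFAF5 lost it in 4 and COA1 in 6 of the 8 fits without 1 sample. Of 35 tested for complexes II to V, 4 fell (11.4%) and 3 rose (8.57%, beside 13.2%). SDHAF3, which helps insert the iron-sulfur clusters of SDHB, was at 12.3 ± 1.38 CPM in iEC and 5.88 ± 2.14 CPM in iREC (SD, n = 4 each), a log2 fold change of -1.06 (adjusted p = 0.0213, edgeR; lost in 3 of 8 fits without 1 sample). TMEM70, an assembly factor of complex V, fell by 0.65, COA6 by 0.72 and TACO1, a translational activator of MT-CO1, by 0.47. TMEM70 lost the call in 3 and COA6 in 6 of the 8 such fits. ATPAF1 and COA5 rose by 0.62 and 0.53, and each lost the call in 5 of the 8. COX19, a copper-handling factor, rose by 1.81; 21.4% of its exonic bases are shared with ADAP1 on the same strand, which rose from 0.259 to 5.87 CPM.

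The citric acid cycle, which supplies NADH and succinate to the chain, had 4 of 14 tested genes called, all lower, among them OGDH by 0.58, IDH3A by 0.43 and DLST by 0.38 on the log2 scale (28.6%, beside 11.7% of all genes called lower). OGDH and IDH3A lost the call in 4 and 7 of the 8 fits without 1 sample, and 38.9% of IDH3A's exonic bases lie opposite other annotated genes. Of 20 tested genes of protein import and cristae 3 fell: CHCHD3 by 0.54, TIMM50 by 0.48 and IMMT by 0.28 (15%, beside 11.7%), of which IMMT lost the call in all 8 such fits.

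The largest changes near the chain were at pyruvate dehydrogenase, the gate between glycolysis and the citric acid cycle. Kinases of the PDK family switch the enzyme off by phosphorylation and phosphatases of the PDP family switch it on. PDK4 was read at 0.00, 0.95, 0.06 and 0.36 CPM in iEC C to F and at 18.4, 66.5, 73.1 and 21.6 CPM in iREC C to F. The groups were far apart (log2 fold change 7.01 ± 0.87, adjusted p = 0.000516, edgeR; few iEC reads lie behind it), with iREC D and E above iREC C and F. PDP1 was read at 123, 94.3, 126 and 137 CPM in iEC and at 42.2, 29.8, 31.3 and 23.7 CPM in iREC (-1.92 ± 0.19, adjusted p = 0.000191, edgeR).

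PDHB, a subunit of the enzyme itself, was read at 70.1, 65.4, 71.9 and 79.0 CPM in iEC and 134, 137, 137 and 113 CPM in iREC (0.86 ± 0.11, adjusted p = 0.000663, edgeR). PDK4, PDP1 and PDHB kept the call in the 21 alternatives. In the annotation 38.6% of the exonic bases of PDK2 lie opposite another gene. PDK2 and PDK1 rose by 0.86 and 0.82 on the log2 scale, and PDK2 lost the call in 5 of the 8 fits without 1 sample. With these, 4 of the 19 tested genes of pyruvate entry and of adenine nucleotide and phosphate carriage rose and 1 fell (21.1% and 5.26%, beside 13.2% and 11.7% of all genes tested). Of 8 tested genes of the list for uncoupling and respiratory brakes 1 rose (12.5%, near the 13.2% of all genes): PRELID2, a PRELI-domain relative of lipid-transfer proteins, by 1.33.

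**Figure D5:**
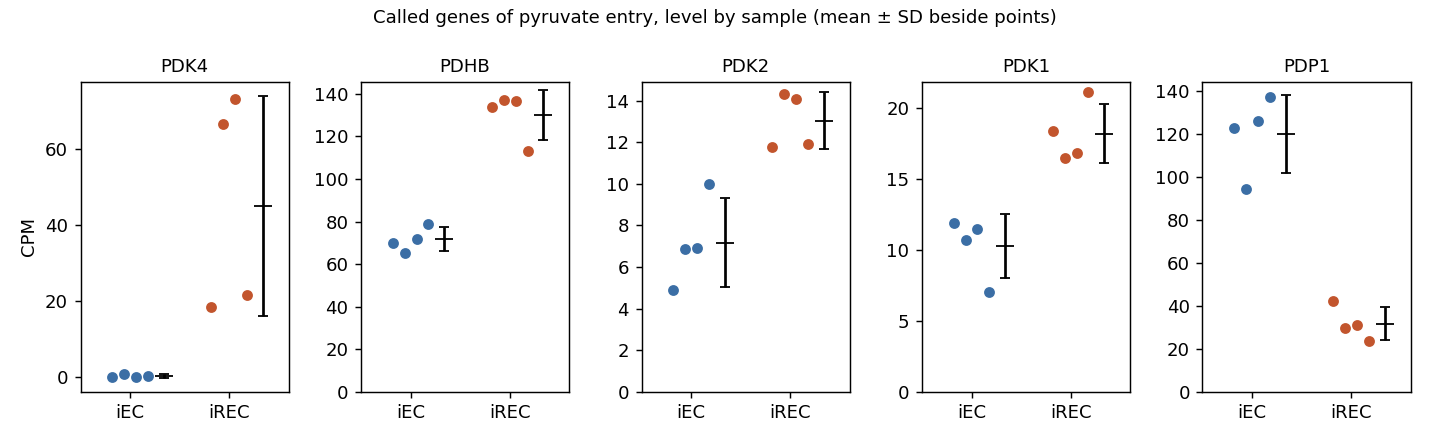
Level in CPM (vertical axes, a scale for each gene) by sample in iEC and iREC for the 5 called genes of pyruvate entry, with the mean ± SD (n = 4) beside the points. PDK4 is at 0.00 to 0.95 CPM in iEC and at 18.4 to 73.1 CPM in iREC, PDP1 falls from 94.3 CPM or more to 42.2 CPM or less, and PDHB, PDK2 and PDK1 are higher in all iREC samples.

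In the authors' deposited table, at their own adjusted p under 0.05 (16.3% of its 30386 genes), 13 nuclear members were called, 12 of them lower, and 12 of the 13 are the genes called here; no mitochondrial-encoded member was called there.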

How the data were processed

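RNA from 4 iEC and 4 iREC samples was measured by poly-T selected RNA sequencing. Per the submitters' processing notes the authors used fastp and HISAT2 2.0.5 on hg38; the counter, and whether it used strand, is not given in the sources used here. Deposited counts are raw reads per gene; the deposited normalized signal, by its values the counts over 1 size factor per sample by the authors, was not used. The deposited FPKM values served only to order levels between genes, and the authors' deposited log2 fold changes and adjusted p-values only for the final comparison with this fit. All 30386 identifiers matched GENCODE 29 (GRCh38) in start and end, which gave exon sharing.

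Counts were fitted with edgeR 4.0.16 in R 4.3.3 (quasi-likelihood F-test, filterByExpr, TMM, Benjamini-Hochberg over 15330 genes, adjusted p threshold 0.05). CPM use TMM-scaled library sizes, and log2 CPM a prior count of 2. An SE is the log2 fold change divided by the root of F. The detection floor was set at 3 counts, or 0.178 to 0.215 CPM. Totals of 13739364 to 16971865 counts set the counting error. The SE and the p-values also include the spread among samples of a group. Alternatives were 3 other scalings, scaling without mitochondrial-encoded genes, no filter and a stricter one, DESeq2 1.42.0, limma-voom (limma 3.58.1), protein-coding genes only, a length trend, the replicate letter as a block, and each sample left out; leaving out iEC F and iREC E together was added after seeing the data.

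Genes named are the 13 mitochondrial-encoded members, the 4 given markers, called nuclear members, isoform pairs, complex II, and in each pathway list up to 3 called genes in each direction. A called member and a called listed gene are not reported here. DLST, TACO1, PDK1, the uncalled regulators and other uncalled members were named after their values were seen, and the first 3 were not followed across the alternatives. The members and lists were chosen with earlier results of these data known.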

Additional observations from a re-analysis of the deposited data

Results flagged for a closer look

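A sample was set apart where its gap to the nearest of the other 3 samples of its group exceeded Dixon's critical value of 0.829 times the group's range on the log2 CPM scale. Of 142 groups of 4 examined, 13 met this, where about 7.1 would by chance.

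Of the 13, 6 were sums over members. Summed nuclear members stood at 13.31 in iEC F, above the other iEC samples, and at 12.59 in iREC E, below the other iREC samples. The summed nuclear complex I genes did the same, at 11.43 in iEC F and 10.68 in iREC E. Summed nuclear complex IV genes were high in iEC F at 10.80, and complex V genes at 11.94. These sums share members and are not separate observations.

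Single genes were COX5A, high in iEC F at 7.25, SLIRP, high in iEC F at 6.43, and IDH3A, low in iEC F at 4.996. NDUFA4 was low in iREC E at 6.51. MT-ND3 was low in iREC C at 9.67, MT-ND4 high in iREC F at 12.67 and PDHB low in iREC F at 6.82.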

How the results depend on the processing

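The count of genes called stayed within 1.5 times of 3829 in all 21 alternatives, none called a mitochondrial-encoded member, and all kept the negative nuclear median, which without 1 sample ranged from -0.34 to -0.16 (nearest 0 without iEC F). Nuclear members called lower numbered 7 (8.75%, without iREC D or iREC E) to 11 (13.8%) without 1 sample. Of all genes tested 7.47% (without iREC D) to 12.6% (without iREC F) were called lower in those fits. Without iEC F and iREC E together 7 members were called lower (8.75%, beside 8.06%), and the log2 ratio of the summed nuclear level was -0.0853. Genes called numbered 2660 (without iREC D) to 4214 (without iREC F). Whether the letters pair the samples is not given, and same-letter correlations were mixed (0.168, -0.0794, 0.0291 and 0.25 for C to F), so they were not used as pairs. With the replicate block 3334 genes were called, and 10 nuclear members were called lower (12.5%, beside 9.81% of all genes tested). Of these 10, 8 were among the original 11, and SDHA, COX5A and NDUFA6 lost the call.

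Signs turned for uncalled genes near 0. MT-ND2 was at -0.0016 with DESeq2 size factors or DESeq2 and -0.0192 with no filter, and ran from -0.1187 to 0.1392 without 1 sample. MT-CO2 was at 0.0279 with upper quartile scaling, 0.0079 with library size only, 0.0002 with scaling free of mitochondrial-encoded genes, 0.0216 with the stricter filter, 0.0096 with limma-voom, 0.0099 with the block, 0.0609 with block and length trend, 0.0569 with the length trend and 0.1198 without iEC F and iREC E. SDHC was at -0.0151 with the length trend. NDUFA4 was at -0.0084 with no filter. Without iEC F and iREC E, ATP5MC1 was at 0.1261, ATP5MC2 at 0.1319 and SDHD at 0.0345. Without 1 sample ATP5MC1 ran from -0.2835 to 0.0318, ATP5MC2 ran from -0.13 to 0.0301, MT-ATP6 ran from -0.056 to 0.1135, MT-ATP8 ran from -0.0627 to 0.2066, MT-CO2 ran from -0.0862 to 0.0802, MT-ND3 ran from -0.0542 to 0.2457, MT-ND4 ran from -0.0513 to 0.1631, MT-ND4L ran from -0.0272 to 0.2802, MT-ND6 ran from -0.0528 to 0.1951, NDUFA4 ran from -0.1012 to 0.1247, SDHD ran from -0.1681 to 0.02. The cause was not tested.

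Depth limits members under about 3 CPM, and 6 members could not be tested.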
